A study of Mus musculus with 2 samples.

Results

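Sinusoidal endothelial nuclei of the MASH liver were selected on the UMIs of named genes, and numbered 1921 of 20081 nuclei with at least 300 detected genes. A nucleus was taken when *Ptprb*, *Clec4g*, *Kdr*, *Stab2* and *Adgrf5* summed to at least 3 UMIs and its total did not exceed 6000 UMIs. *Vwf*, a gene of large-vessel endothelium, had to be at 0 UMIs, and 6 genes of other cell types (*Reln*, *Dcn*, *Ms4a7*, *Clec4f*, *Pkhd1* and *Bcl11b*) were allowed 1 UMI in all. The library labelled Flox gave 750 of 9360 nuclei and the library labelled HKO 1171 of 10721. The selection used the values themselves, so the levels of the 5 selecting genes and all comparisons with other nuclei are a description, with no test.

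Liver sinusoidal endothelial cells (LSECs) line the capillaries of the liver lobule. They carry open pores without a basement membrane, take up waste macromolecules through scavenger receptors, and send Wnt ligands, R-spondin, BMPs and HGF to the hepatocytes beside them. Cells near the central vein and cells near the portal tract differ in what they express, and in chronic liver disease the lining can lose its pores, which is known as capillarization.

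The data were snRNA-seq counts from 2 libraries of male C57BL6/J mice given a MASH diet (40 kcal% fat, 20 kcal% fructose, 2% cholesterol) for 5 months from an age of 10 to 12 weeks. The Flox mice carried *Themis* flox/flox, and the HKO mice the same alleles with Alb-Cre, a Cre driven by the albumin promoter and so directed at hepatocytes and not at endothelium. Each genotype gave 1 library, made from the pooled livers of several mice, whose nuclei were sorted by flow cytometry. There was therefore no replicate of either genotype, no test of a difference was possible, and genotype cannot be told apart from any other difference between the 2 preparations. Values are summed UMIs of all sinusoidal nuclei of a library, scaled to the same total (CPM). Each ratio is HKO-labelled over Flox-labelled, and ranges in parentheses are exact 95% intervals that cover counting error only. Pairs of values give the library labelled Flox first.

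The sinusoidal nuclei held 1174124 and 1445903 UMIs, with medians of 1365 and 1007 UMIs and 855 and 651 genes per nucleus, so 3 UMIs of a gene correspond to 2.56 and 2.07 CPM. Mitochondrial genes took 1.05% and 1.13% of these UMIs, and *Malat1* took 16.1% and 18.1%. The libraries shared 27 barcodes, of which 0 were sinusoidal nuclei of both. *Themis* itself, the targeted gene, was at 155 and 254 CPM in hepatocyte nuclei and thus not lower in the library labelled HKO. Counts at the 3′ end do not tell whether a floxed exon was present, and the libraries are named by their labels throughout. In sinusoidal nuclei *Themis* had 16 and 51 UMIs, in 15 and 26 nuclei.

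The label was checked against its markers and against endothelial genes that the selection had not used. All 5 markers were present in both libraries. *Clec4g*, *Stab2*, *Kdr* and *Ptprb* were selecting genes, so their presence is no check, and only *F8* stood outside the selection. *F8*, coagulation factor VIII, which the liver releases from its endothelium, was at 2374 and 2044 CPM and had a UMI in 688 (91.7%) and 981 (83.8%) nuclei. After each nucleus had been thinned to 800 UMIs it was detected in 80.5% and 77.3% of sinusoidal nuclei, and in 3.48% and 3.45% of hepatocyte nuclei, which had medians of 7335 and 5859.5 UMIs. Of a list of 20 pan-endothelial genes, none of them used to select, 743 of 750 nuclei and 1161 of 1171 had at least 2 UMIs, while 7 and 6 nuclei had none. Nearly every nucleus was therefore endothelial. The list does not separate sinusoidal from large-vessel endothelium. It summed to 10092 and 8534 CPM in sinusoidal nuclei, and to 13246 and 9253 CPM in endothelial nuclei that carried *Vwf*.

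Fewer nuclei stood near the limit of the selection in the library labelled Flox. The 5 selecting genes had a median of 12 UMIs per nucleus there and 7 in the library labelled HKO, and 608 nuclei (81.1%) against 551 (47.1%) had 8 or more. Just inside the limit, with 3 UMIs, stood 17 and 108 nuclei, whose summed pan-endothelial level was 3422 and 6571 CPM. Just outside it, with 2 UMIs, stood 25 and 111 nuclei at 1701 and 2473 CPM. Nuclei with 1 UMI numbered 169 and 442, at 129 and 378 CPM.

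**Figure D1:**
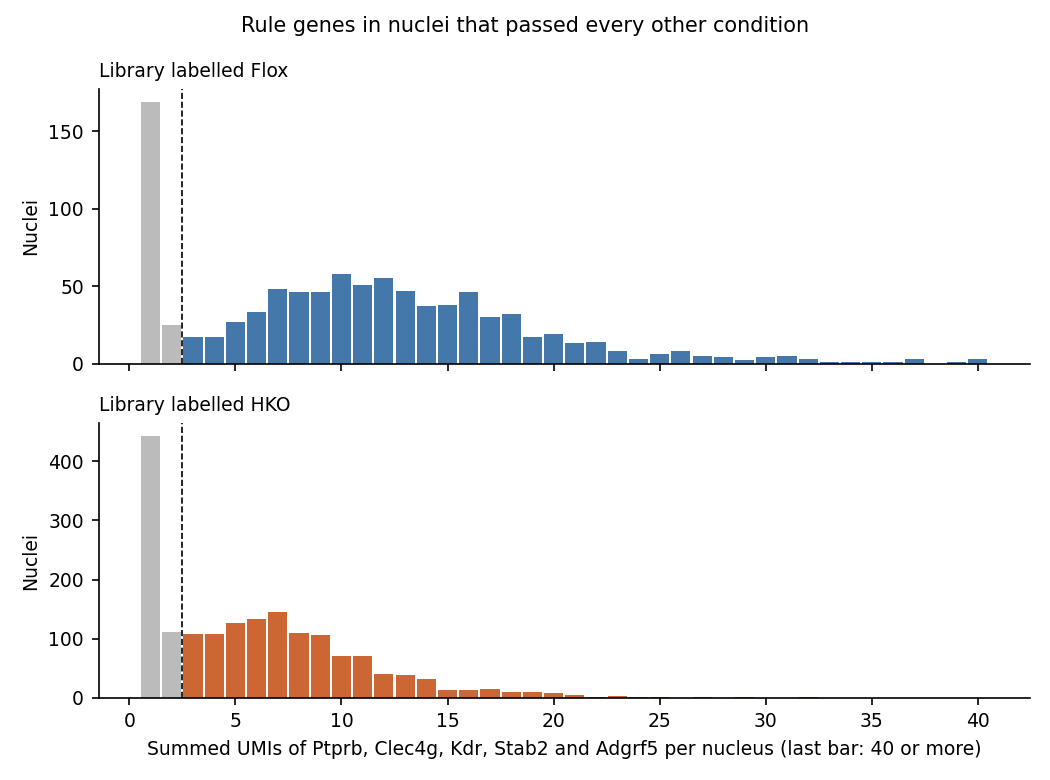
Number of nuclei (y axis) by the summed UMIs of *Ptprb*, *Clec4g*, *Kdr*, *Stab2* and *Adgrf5* (x axis) among nuclei that met every other condition, with 1 panel per library. Coloured bars right of the dashed line are the sinusoidal nuclei. Their median is 12 UMIs in the panel of Flox and 7 in that of HKO, where 108 nuclei stand at the limit of 3.

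Set against all other nuclei, the genes most enriched in sinusoidal nuclei were mostly endothelial genes, and not all of them were particular to LSECs. Of genes the selection had not used, *Btnl9*, a butyrophilin-like surface protein, led the list with 571 CPM in sinusoidal nuclei and 5.49 CPM in all other nuclei. It was followed by *Erg*, an ETS transcription factor that keeps endothelial identity, by *Lyve1*, a hyaluronan receptor, and by *Gm46565*. *Pcdh17*, *Adgrl4*, *Adgrg3*, *Oit3*, *Flt4*, *Dnase1l3*, *Arhgef15*, *Robo4*, *Shank3* and *Col13a1* were also among the leading genes. *Dnase1l3*, a secreted DNase, was at 617 and 7.08 CPM in sinusoidal and other nuclei. Its level in sinusoidal nuclei over that in endothelial nuclei with *Vwf* was 7.27 (4.69 to 11.9). For *Erg* and *Robo4* the same ratio was 1.25 (0.805 to 2.06) and 1.16 (0.898 to 1.53), so these were not detectably higher in sinusoidal nuclei. *Lyve1* and *Flt4* also mark lymphatic vessels. Of the 8 lymphatic markers listed, these 2 and *Prox1*, which hepatocytes also express, reached 20 UMIs over both libraries, and *Reln* was limited by the selection.

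The 169 endothelial nuclei that met the same rule except for carrying *Vwf* (63 and 106) had a different pattern. *Stab2*, the hyaluronan scavenger receptor of LSECs, was at 1567 and 1425 CPM in sinusoidal nuclei and at 200.02 and 199 CPM in *Vwf* nuclei. *Clec4g*, a lectin of the LSEC surface, was at 702 and 454 CPM against 133 and 137. The order was reversed for *Rspo3*, which amplifies Wnt signals, at 311 and 119 CPM against 3589 and 2501, and for *Edn1*, the precursor of the vasoconstrictor endothelin-1, at 33.2 and 71.9 CPM against 567 and 749. *Bmp4* was likewise at 8.52 and 14.5 CPM in sinusoidal nuclei and at 389 and 714 CPM in *Vwf* nuclei, so most of its signal in liver endothelium lay outside the sinusoidal nuclei. The *Vwf* nuclei held only 89989 and 145570 UMIs, and a nucleus of a large vessel in which no *Vwf* UMI was caught would count as sinusoidal.

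**Figure D2:**
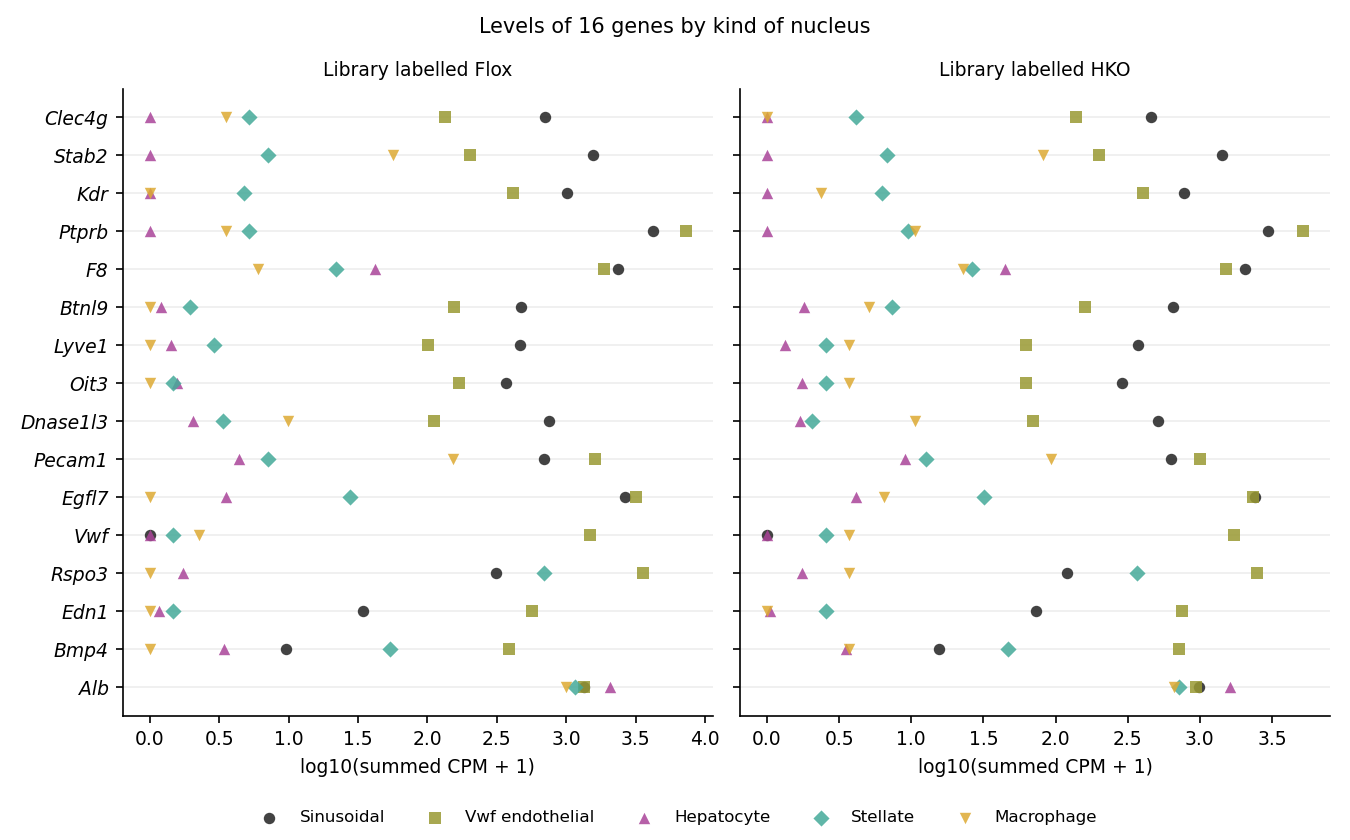
Summed CPM plus 1 on a log10 scale (x axis) of named genes in 5 kinds of nuclei, with 1 panel per library; 0 means no UMI. Black circles are the sinusoidal nuclei. They lead for *Clec4g*, *Stab2*, *Kdr*, *F8*, *Btnl9*, *Lyve1*, *Oit3* and *Dnase1l3*, while *Vwf* nuclei lead for *Rspo3*, *Edn1* and *Bmp4*, and *Alb* was found in all 5 kinds.

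Sinusoidal nuclei made up 8.01% (7.47 to 8.58) of the Flox-labelled nuclei and 10.9% (10.3 to 11.5) of the HKO-labelled nuclei. The ratio of these shares was 1.36 (1.24 to 1.496). The direction rested on what they were counted among. Among nuclei that were not hepatocyte nuclei the shares were 14.0% and 14.9%, a ratio of 1.06 (0.964 to 1.16). Among nuclei with at most 6000 UMIs, which alone could be selected, they were 16.6% and 14.3%, and the ratio turned to 0.859 (0.783 to 0.943). After all nuclei had been thinned to 800 UMIs it was 1.11 (0.997 to 1.23). A share of nuclei also depends on how many nuclei of each type survive isolation and sorting, which was not measured.

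RNA of other cells was present in the sinusoidal nuclei and differed between the libraries. The 16 hepatocyte markers gave a median of 7 and 3 UMIs per nucleus and summed to 7213 and 5517 CPM, and 47 and 63 nuclei had more than 20 of these UMIs. *Alb*, the most abundant plasma protein of hepatocytes, was at 1347 and 979 CPM in sinusoidal nuclei and at 2069 and 1624 CPM in hepatocyte nuclei. The 14 stellate markers summed to 717 and 593 CPM, and *Hgf*, which LSECs also make, gave 564 and 432 CPM of that. The 15 markers of macrophages summed to 527 and 602 CPM, of which *Slc40a1*, the iron exporter, gave 302 and 308 CPM, and the median nucleus had 0 UMIs of either list. *Reln*, *Lrat* and *Bcl11b* did not reach 20 UMIs over both libraries. Scrublet marked 30 (4%) and 102 (8.71%) of the sinusoidal nuclei as likely doublets. The part of this RNA in the ratios that follow was not tested. Each ratio was also computed without the nuclei Scrublet marked, and without nuclei rich in hepatocyte or macrophage markers.

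Of 10319 genes with at least 20 UMIs in sinusoidal nuclei, 866 (8.39%) had a ratio whose counting interval lay above 1 and 1184 (11.5%) one that lay below it, where counting error alone leaves up to 2.5% on either side. With such an interval, the ratio was at least 2 for 238 genes (2.31%) and at most 0.5 for 224 (2.17%). The median log2 ratio, taken with 1 CPM added to both levels, was -0.03, with quartiles of -0.32 and 0.26. Among the 2166 genes with at least 30 UMIs whose level in sinusoidal nuclei was 2 or more times that in other nuclei, 147 (6.79%) lay above 1 and 500 (23.1%) below. By the same conditions 27 of these enriched genes (1.25%) were at least 2 times higher, 51 (2.35%) at most 0.5 times as high, and the median log2 ratio was -0.14. They were enriched over all other nuclei together, and not all mark endothelium. *Hpse*, at 27.9 CPM in sinusoidal nuclei of both libraries, was at 52.2 CPM in stellate nuclei. The enriched genes were thus more often lower than higher in the library labelled HKO, and the gene lists that follow are to be read against that share. Many of the lower ratios depended on the limit of 6000 UMIs. Each nucleus admitted without that limit held more than 6000 UMIs, against medians of 1365 and 1007 in the sinusoidal nuclei. It thus weighs more in a summed level. Hepatocyte nuclei had medians of 7335 and 5859.5 UMIs. The median log2 ratio of the hepatocyte markers was -0.38, and -0.69 without the limit. The part of hepatocyte RNA in this setting was not tested. Among listed and named genes 113 lay below 1, and with no upper limit, which admitted 860 and 1236 nuclei in all, the interval of 59 of them included 1 or lay above it and the ratio of 27 was above 1. Of 53 genes above 1, 7 lost their interval and 5 turned. No other alternative turned more than 2 of these 166 genes, but more of the higher genes lost their interval under 2 of them. Without likely doublets 36 of the 166 lost it, 19 of the lower and 17 of the higher genes. After thinning 38 lost it, 22 of the lower and 16 of the higher genes.

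**Figure D3:**
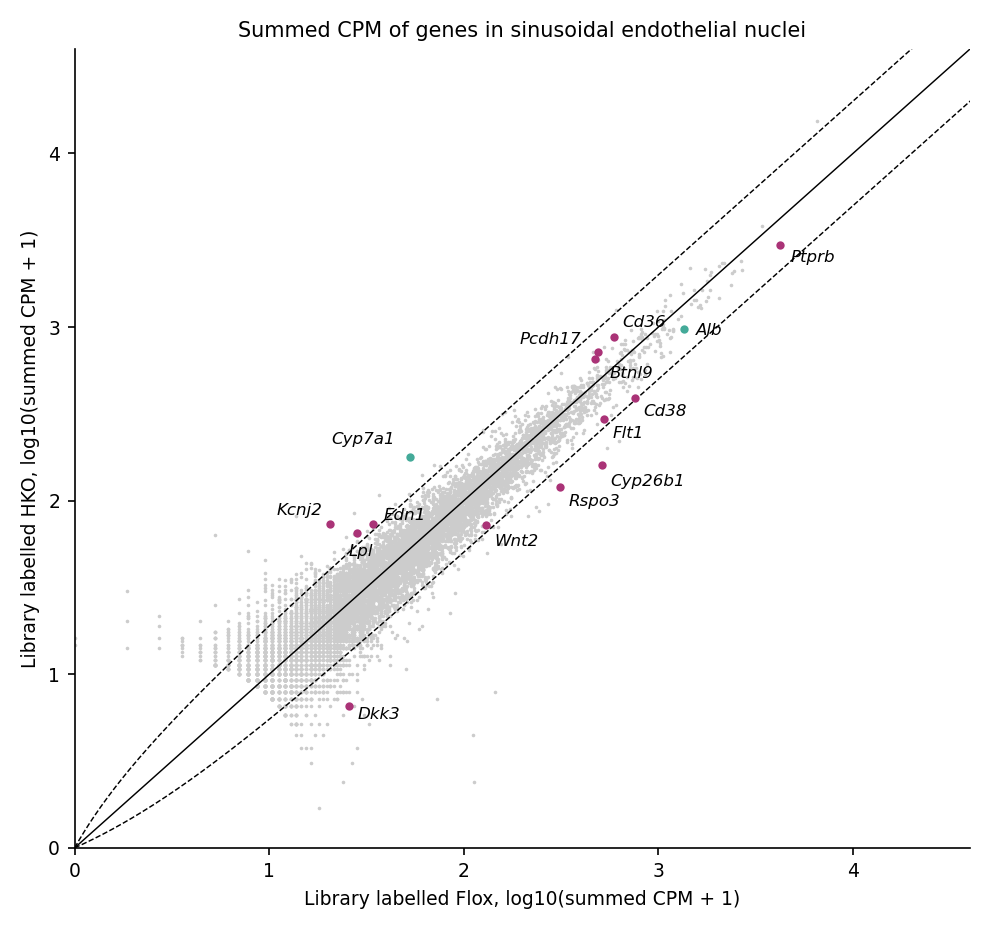
Summed CPM plus 1 on log10 scales in sinusoidal nuclei with the Flox label (x axis) and the HKO label (y axis), with 1 point per gene. The solid line marks equal levels and the dashed lines ratios of 2 and 0.5. *Cyp26b1*, *Rspo3* and *Dkk3* lie below the lower dashed line, *Kcnj2*, *Edn1* and *Lpl* above the upper one, and green points are hepatocyte genes.

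*Cyp26b1*, an LSEC gene, had one of the lowest ratios. It encodes an enzyme that breaks down retinoic acid and so limits how long the signal lasts in a cell. *Cyp26b1* (ENSMUSG00000063415; GRCm38 chromosome 6, 84571414 to 84593908, minus strand) had 598 and 229 UMIs, which gave 509 CPM (469 to 552) in the Flox-labelled nuclei, 158 CPM (139 to 180.3) in the HKO-labelled ones and a ratio of 0.311 (0.266 to 0.363). After thinning to 800 UMIs it was detected in 25.3% (22.2 to 28.6) of 723 nuclei and 10.6% (8.65 to 12.8) of 887, which left out 27 and 284 shallower ones, against 34.7% and 12.3% before thinning. In hepatocyte nuclei, which should lack it, the thinned share was 0.0995% and 0.0352%. Across 13 other ways of choosing, filtering or scaling the nuclei the ratio stayed between 0.287 and 0.39, each interval below 1. In the *Vwf* nuclei it was at 200.02 and 247 CPM from 18 and 36 UMIs, a ratio of 1.24 (0.684 to 2.31).

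Other genes of retinoid signalling followed in the same direction or showed no detectable difference. *Rarb* and *Rarg*, receptors for retinoic acid, were at 70.7 and 39.4 CPM (0.558, 0.391 to 0.791) and at 80.1 and 53.3 CPM (0.665, 0.486 to 0.909). *Dhrs3*, which returns retinal to retinol, was at 149.9 and 96.8 CPM (0.646, 0.514 to 0.811). *Rxra*, the partner receptor, was at 33.2 and 42.9 CPM (1.29, 0.851 to 1.98), and *Rara* had 24 and 27 UMIs, so neither differed detectably at this depth. *Cyp26a1*, the sister enzyme, had 11 and 10 UMIs. Of the 18 retinoid and nuclear receptor genes 13 were measured, 0 lay above 1 and 5 below, and the median log2 ratio was -0.19. The fifth gene was *Ahr*, the aryl hydrocarbon receptor, at 159 and 98.2 CPM (0.617, 0.492 to 0.771). For *Rarg* the interval included 1 when likely doublets were left out, when 5 UMIs of the selecting genes were required, or with no upper limit on UMIs.

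*Rarb* is itself a textbook target of retinoic acid, through a direct repeat to which retinoic acid receptors bind, and its promoter is shown because it carries that motif. RefSeq promoters of GRCm38.p6 (250 bases before to 50 after a start) were searched on both strands for the DR5 retinoic acid response element, and 32 of 32851 (0.0974%) held a match. Of the 18 genes of the retinoid list 15 had a promoter in the table, and *Rarb* and *Cyp26a1* held a match, while *Cyp26b1* did not. A match is a description of letters, not a site shown to be bound. The promoter of *Rarb* on the minus strand of chr14:16575427-16575726 is printed 5′ to 3′ with the repeat in capitals, which lies 53 to 37 bases before the start.
Rarb: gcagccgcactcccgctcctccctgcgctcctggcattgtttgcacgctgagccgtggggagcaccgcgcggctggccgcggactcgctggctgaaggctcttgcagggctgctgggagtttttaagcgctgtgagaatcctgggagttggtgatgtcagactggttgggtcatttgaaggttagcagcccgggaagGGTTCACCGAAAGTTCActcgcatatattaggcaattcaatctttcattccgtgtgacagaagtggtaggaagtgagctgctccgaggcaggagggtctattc

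The Wnt and growth factors that LSECs send to hepatocytes were mostly lower in the library labelled HKO. *Rspo3* (chromosome 10, 29452416 to 29535867) had levels of 311 and 119 CPM and a ratio of 0.383 (0.317 to 0.460). Its 365 and 172 UMIs came from only 86 and 88 nuclei, so the few nuclei that carried it decide its level. The highest count of *Rspo3* in any nucleus was 36 and 6 UMIs. *Wnt2*, the main Wnt of central LSECs, was at 129 and 71.2 CPM (0.550, 0.424 to 0.711) and was found in 101 and 93 nuclei. After thinning, *Rspo3* was detected in 8.85% (6.88 to 11.2) and 5.75% (4.31 to 7.49) of sinusoidal nuclei. The thinned shares of *Wnt2* were 8.16% (6.27 to 10.4) and 5.86% (4.41 to 7.62). For both genes the intervals of these shares overlapped, so the lower levels were less clear by detection than by summed UMIs. *Wnt9b* had 11 and 4 UMIs, too few for a comparison. *Bmp6*, which tells hepatocytes to make hepcidin, was at 45.1 and 24.9 CPM (0.552, 0.351 to 0.858), and *Bmp2*, which does the same, at 1109 and 905 CPM (0.816, 0.755 to 0.882). With no upper limit on UMIs the ratio of *Bmp2* turned to 1.05 and the interval of *Bmp6* included 1.

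*Hgf*, the hepatocyte growth factor, was at 564 and 432 CPM (0.767, 0.686 to 0.857), which turned to 1.01 with no upper limit on UMIs. *Dkk3*, a secreted protein of the Dickkopf family, had 29 and 8 UMIs (0.224, 0.0885 to 0.502). *Igf1* went the other way, at 73.2 and 115 CPM (1.57, 1.20 to 2.06), but its interval included 1 without likely doublets, without nuclei with RNA of other types, or after thinning. Of 12 such genes 9 were measured, 1 lay above 1 and 6 below. Their median log2 ratio was -0.53, and reached 0.01 with no upper limit on UMIs. In the *Vwf* nuclei *Rspo3* had a ratio of 0.697 (0.598 to 0.812), so its level was lower there too. Stellate nuclei carried *Rspo3* at 693 and 366 CPM (0.528, 0.481 to 0.578) and *Hgf* at 1885 and 1801 CPM. The 16 markers of large-vessel endothelium, *Rspo3* among them, summed to 1061 and 802 CPM in sinusoidal nuclei, and the part of such nuclei in these ratios was not tested.

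The receptors by which endothelium answers VEGF and angiopoietins were lower as well. *Flt1*, the VEGF receptor 1, was at 523 and 293 CPM (0.559, 0.493 to 0.634). *Nrp1*, a co-receptor, was at 1034 and 706 CPM (0.683, 0.628 to 0.743), and *Flt4*, the VEGF receptor 3, at 392 and 308 CPM (0.787, 0.690 to 0.899). *Kdr*, the VEGF receptor 2 and a selecting gene, had levels of 1015 and 782 CPM and a ratio of 0.770 (0.709 to 0.836). *Tek*, the angiopoietin receptor, was at 302 and 194 CPM (0.643, 0.548 to 0.754). *Ptprb*, the phosphatase that acts on it, was at 4224 and 2961 CPM (0.701, 0.673 to 0.731) and is a selecting gene too. *Tie1* did not differ detectably, with a ratio of 1.001 (0.864 to 1.16). Of 5 measured genes of the angiopoietin axis 0 lay above 1 and 2 below, *Tek* and the selecting gene *Ptprb*. The median log2 ratio of -0.46, *Ptprb* included, turned to 0.02 without likely doublets.

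Of 11 VEGF receptors and ligands 9 were measured, 1 above 1 and 5 below, with a median log2 ratio of -0.34 that came to -0.0034 with no upper limit on UMIs. The 5 include *Kdr*, whose values the selection used. The gene above 1 was *Vegfa*, at 149 and 183 CPM (1.23, 1.01 to 1.50), which hepatocyte nuclei carried at 765 and 829.99 CPM. Its ratio ranged from 0.753 to 1.50 over the alternatives. Under that setting the ratio of *Flt4* turned to 1.06 and that of *Kdr* came to 0.998, while the intervals of *Flt1*, *Nrp1* and *Tek* stayed below 1.

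In the BMP and TGF-beta pathway 9 of 16 measured genes lay below 1 and 0 above, with a median log2 ratio of -0.38 that came to -0.068 with no upper limit on UMIs. *Eng*, endoglin, a co-receptor for BMP9, was at 736 and 513 CPM (0.697, 0.631 to 0.770). *Bmpr2*, the type II receptor, was at 644 and 479 CPM (0.743, 0.669 to 0.825), and *Tgfbr2* at 85.2 and 53.3 CPM (0.625, 0.458 to 0.850). The receptors *Acvrl1* and *Tgfbr1* had ratios of 1.12 and 1.06 and did not differ detectably. Some genes that this pathway can switch on were lower, while *Id2* (0.894) did not differ detectably. Whether signalling through the pathway differed was not tested. *Id1* was at 107 and 68.5 CPM (0.638, 0.485 to 0.837), *Id3* at 354 and 223 CPM (0.629, 0.542 to 0.729), and *Smad7*, an inhibitor induced by the signal, at 395 and 286 CPM (0.725, 0.633 to 0.829). With no upper limit on UMIs the intervals of *Bmpr2*, *Tgfbr2*, *Id1* and *Smad7* included 1, and those of *Eng* and *Id3* did not. *Smad6*, the other inhibitor, was at 77.5 and 92.0 CPM (1.19, 0.902 to 1.57) and *Bmp4* had 10 and 21 UMIs (1.71, 0.769 to 4.06), and neither differed detectably at this depth.

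Genes of vascular tone pointed in both directions. *Kcnj2* (chromosome 11, 111066164 to 111076821), an inward-rectifier potassium channel that senses flow, had levels of 19.6 CPM (12.4 to 29.4) and 72.6 CPM (59.4 to 87.9), and thus a ratio of 3.71 (2.34 to 6.10). Its 23 UMIs came from 22 nuclei and its 105 UMIs from 76, and no UMI fell in a *Vwf* nucleus. Over the alternatives its ratio lay between 2.88 and 4.90. *Edn1* had a ratio of 2.17 (1.49 to 3.21), from 24 and 65 nuclei. In *Vwf* nuclei, which carry more of it, its ratio was 1.32 (0.939 to 1.88). *Ednrb*, an endothelin receptor, was at 27.3 and 57.4 CPM (2.11, 1.39 to 3.27), and *Ece1*, the enzyme that releases the active peptide, at 215 and 256 CPM (1.19, 1.01 to 1.40). The interval of *Ece1* included 1 under 3 of 13 alternatives.

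Receptors for the vasodilator adrenomedullin were lower. *Calcrl* was at 362 and 259 CPM (0.717, 0.622 to 0.825), and its partner *Ramp2* at 359 and 212 CPM (0.590, 0.508 to 0.685). *Ptgs1*, cyclooxygenase 1, was at 183 and 120.3 CPM (0.657, 0.535 to 0.806). With no upper limit on UMIs the intervals of *Calcrl* and *Ptgs1* included 1, and that of *Ramp2* did not. *Nos3*, which makes nitric oxide, was at 45.1 and 46.3 CPM (1.03, 0.705 to 1.50), and *Klf2*, a factor induced by laminar flow, at 181 and 169 CPM (0.930, 0.771 to 1.12), with no detectable difference in either. Of 12 measured genes of 21, 4 lay above 1 and 3 below, with a median log2 ratio of 0.00.

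**Figure D4:**
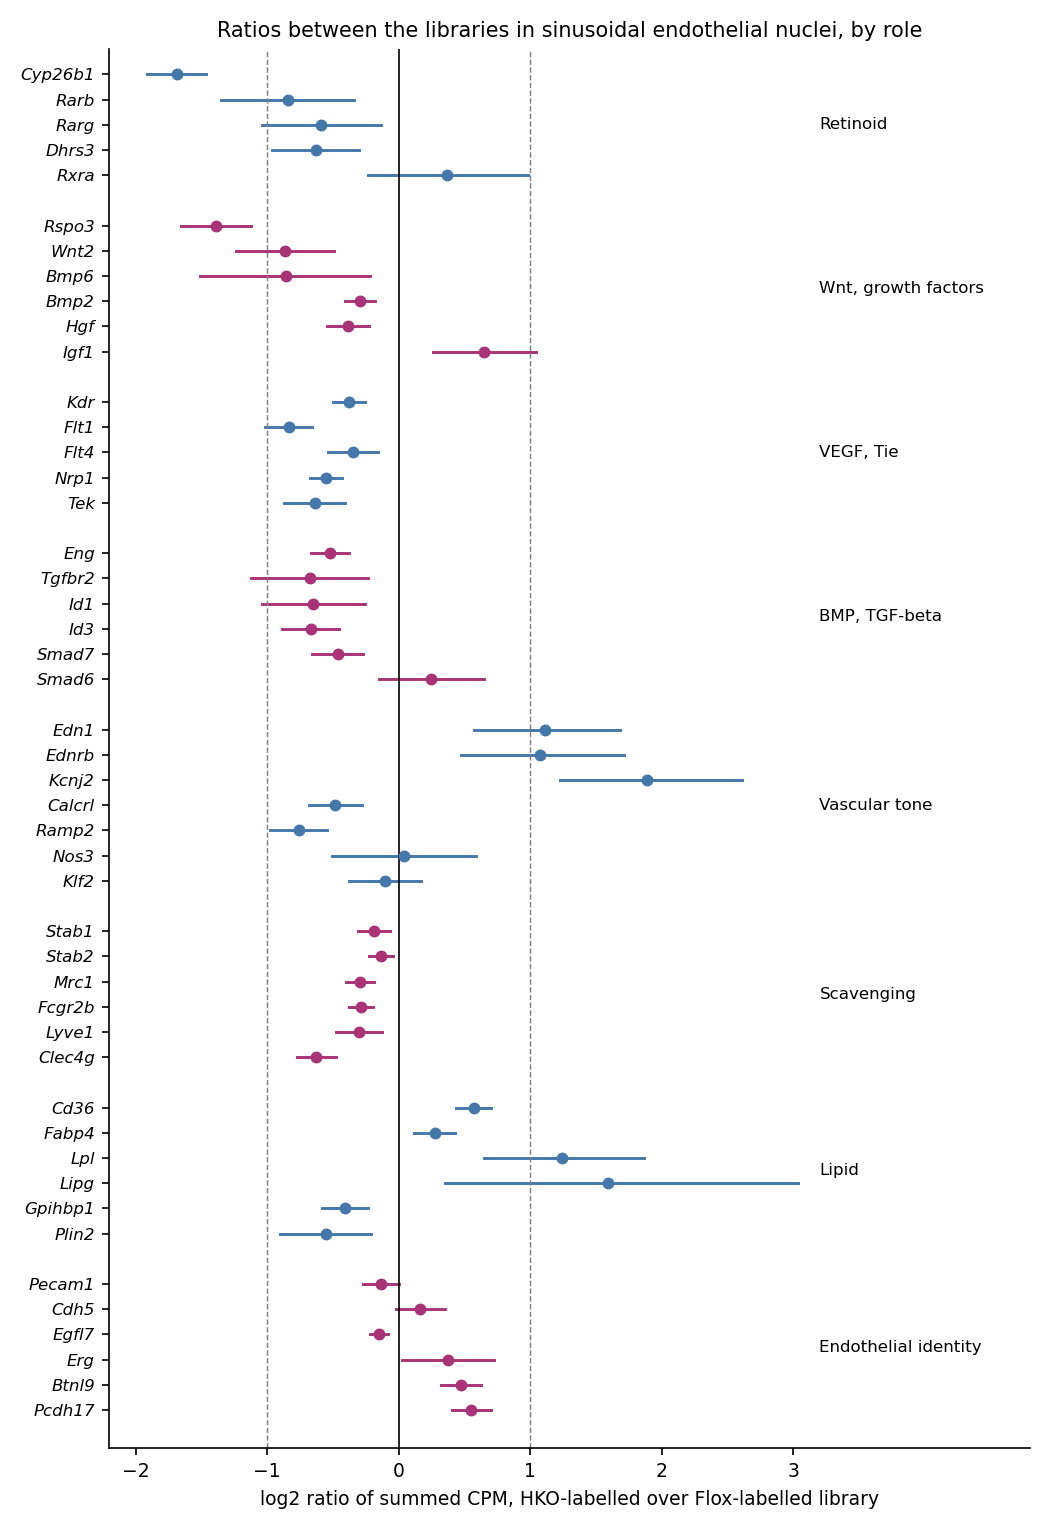
Log2 ratio of summed CPM in sinusoidal nuclei, HKO-labelled over Flox-labelled (x axis), for named genes grouped by role; bars are 95% counting intervals, the solid line marks equal levels and the dashed lines ratios of 0.5 and 2. The retinoid, VEGF and BMP genes lie mostly left of the solid line, where *Cyp26b1* has a ratio of 0.311, and *Edn1*, *Ednrb*, *Kcnj2*, *Lpl* and *Lipg* lie right of the upper dashed line.

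The scavenger receptors, by which LSECs are best known, differed less. *Stab1* and *Stab2*, the stabilins, were at 909 and 797 CPM (0.877, 0.806 to 0.954) and at 1567 and 1425 CPM (0.909, 0.853 to 0.969). *Stab2* was a selecting gene, so its values are a description only. *Mrc1*, the mannose receptor, was at 1191 and 972 CPM (0.817, 0.758 to 0.880), and *Fcgr2b*, which clears immune complexes, at 1644 and 1345 CPM (0.818, 0.768 to 0.872). *Lyve1* was at 459.9 and 373 CPM (0.811, 0.718 to 0.915). *Msr1*, a macrophage scavenger receptor that LSECs share, was at 343 and 337 CPM (0.981, 0.858 to 1.12). *Clec4g*, a selecting gene, was lower by more, with a ratio of 0.647 (0.583 to 0.718), and was found after thinning in 42.2% and 29.5% of nuclei. Hepatocyte nuclei were defined as having no UMI of the selecting genes, so they give no comparison for *Clec4g*. *Dnase1l3* had a ratio of 0.683 (0.619 to 0.755). Of 13 measured receptors and endocytic genes 2 lay above 1 and 6 below, and their median log2 ratio of -0.13 turned to 0.10 with no upper limit on UMIs. Under that setting *Stab1* (1.15), *Stab2* (1.16), *Mrc1* (1.05), *Fcgr2b* (1.07) and *Lyve1* turned above 1 as well, while *Clec4g* stayed at 0.82.

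Lipid handling had a median log2 ratio of 0.35, although 4 of 14 measured genes lay above 1, 2 below and 8 on neither side. The markers of macrophages had a median of 0.36 in the same nuclei. Macrophage nuclei carried the lipid list at 1959 and 2351 CPM, and sinusoidal nuclei at 2243 and 2562 CPM. *Cd36* (chromosome 5, 17781690 to 17888801), a fatty acid and lipoprotein receptor, had levels of 587 CPM (544 to 632) and 871 CPM (823 to 920.2), and so a ratio of 1.48 (1.35 to 1.63). It was detected after thinning in 34.7% and 48.5% of sinusoidal nuclei, against 3.28% and 5.82% of hepatocyte nuclei. *Fabp4*, a fatty acid carrier, was at 485 and 586 CPM (1.21, 1.09 to 1.35). For both genes the interval lay above 1 under all 13 alternatives.

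*Lpl* and *Lipg*, lipases bound at the endothelial surface, had 32 and 93 UMIs (2.36, 1.56 to 3.65) and 7 and 26 UMIs (3.02, 1.28 to 8.23). Both genes were higher in other cells, with *Lpl* at 598 and 747 CPM in macrophage nuclei and *Lipg* at 50.7 and 119 CPM in hepatocyte nuclei. Without the likely doublets both intervals included 1, and over the alternatives their lowest ratios were 1.24 and 0.933. *Gpihbp1*, which anchors LPL to the capillary, was at 475 and 359 CPM (0.755, 0.669 to 0.853), and *Plin2*, a coat of lipid droplets, at 132 and 89.9 CPM (0.681, 0.535 to 0.865).

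Genes of endothelial identity differed in both directions. *Btnl9* (chromosome 11, 49165585 to 49187159) was at 470.1 and 654 CPM (1.39, 1.25 to 1.55) and *Pcdh17*, a protocadherin, at 489.7 and 717 CPM (1.46, 1.32 to 1.62), and both were higher under all 13 alternatives. *Cdh5*, VE-cadherin, was at 348 and 390.1 CPM (1.12, 0.984 to 1.27), and *Pecam1* at 697 and 634 CPM (0.910, 0.828 to 1.002). *Cyyr1* was at 780.2 and 451 CPM (0.578, 0.522 to 0.640), and *Adgrl4*, an adhesion receptor of growing vessels, at 686 and 426 CPM (0.621, 0.558 to 0.690). Of 20 pan-endothelial genes 1 lay above 1 and 10 below, and the median log2 ratio of -0.15 turned to 0.25 with no upper limit on UMIs.

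Several transcription factors that set LSEC fate were lower. *Gata4*, needed for sinusoidal identity, was at 75.8 and 76.1 CPM (1.004, 0.752 to 1.34). *Maf* and *Meis2*, enriched in LSECs, were at 2454 and 2089 CPM (0.851, 0.809 to 0.896) and at 2356 and 1743 CPM (0.740, 0.701 to 0.781). *Meis1* was at 231 and 161 CPM (0.698, 0.583 to 0.835), and *Sox7* had the lowest ratio of the list, at 46.0 and 27.0 CPM (0.586, 0.378 to 0.902). *Erg* was at 96.2 and 124 CPM (1.29, 1.02 to 1.65), and *Sox17* and *Tcf4* did not differ detectably. Of 21 measured factors 1 lay above 1 and 7 below, and the median log2 ratio of -0.10 turned to 0.24 with no upper limit on UMIs. There the ratio of *Maf* turned to 1.13, and the intervals of *Meis1*, *Meis2* and *Sox7* included 1.

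Genes of capillarization also differed in both directions. *Cd34*, which appears on capillarized endothelium, had 17 and 30 UMIs (1.43, 0.765 to 2.77), and *Plvap*, of the diaphragms of closed pores, was at 139 and 118 CPM (0.847, 0.679 to 1.06). Among basement membrane genes *Lama4* was at 480.4 and 393 CPM (0.818, 0.727 to 0.920), *Col4a2* at 159 and 122 CPM (0.764, 0.619 to 0.944), and *Hspg2*, perlecan, at 219 and 275 CPM (1.25, 1.07 to 1.47). *Lama4* turned to 1.08 with no upper limit on UMIs, and the interval of *Col4a2* included 1 under 4 of 13 alternatives. Of 14 measured genes 2 lay above 1 and 4 below, and their median log2 ratio of -0.20 turned to 0.18 with no upper limit on UMIs. The other gene above 1 was *Spp1*, osteopontin, at 12.8 and 80.2 CPM (6.28, 3.65 to 11.6), found in 14 and 60 nuclei. *Spp1* is also a marker of cholangiocytes, was at 11.1 and 124 CPM in *Vwf* nuclei, and was the only 1 of 9 cholangiocyte markers with 20 or more UMIs here. Its ratio was 2.20 (1.90 to 2.55) in hepatocyte nuclei, 3.44 (2.32 to 5.23) in stellate nuclei and 0.594 (0.376 to 0.923) in macrophage nuclei. All other nuclei together carried it at 83.6 and 192 CPM, above the sinusoidal levels.

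Notch and ephrin genes, which shape periportal endothelium, included a few that were higher. *Notch4* was at 66.4 and 96.8 CPM (1.46, 1.10 to 1.95) and *Efnb1* at 105 and 163 CPM (1.55, 1.24 to 1.95), each above 1 under all 13 alternatives. *Dll4*, a Notch ligand, was at 109 and 138 CPM (1.27, 1.01 to 1.60), and its interval included 1 under 5 of them. *Notch1* was lower, at 306 and 252 CPM (0.823, 0.710 to 0.955), but its interval included 1 under 2 alternatives. Of 10 measured Notch genes 2 lay above 1 and 1 below. Of 16 measured guidance and adhesion receptors *Efnb1* lay above 1 and 5 below, among them *Plxnc1*, a semaphorin receptor, at 407 and 244 CPM (0.600, 0.521 to 0.690).

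Several coagulation genes made by LSECs were lower. *F8* had a ratio of 0.861 (0.817 to 0.907), and *Lman1*, which carries factor VIII out of the endoplasmic reticulum, was at 173 and 138 CPM (0.796, 0.651 to 0.973). *F2r*, the thrombin receptor, was at 189.9 and 122 CPM (0.645, 0.526 to 0.789). With no upper limit on UMIs *F8* turned to 1.13 and the interval of *F2r* included 1. Of 10 measured genes 1 lay above 1 and 4 below, with a median log2 ratio of -0.03. Immediate early genes, which respond within minutes and can also be set by tissue handling, gave 3 above and 2 below of 13, with *Nr4a1* at 2 and 26 UMIs (10.6, 2.64 to 91.8) and *Junb* at 59.6 and 31.8 CPM (0.534, 0.360 to 0.785).

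Immune genes were mixed. MHC class II genes *H2-Ab1* and *H2-Aa* were at 40.9 and 63.6 CPM (1.56, 1.09 to 2.25) and at 53.7 and 77.5 CPM (1.44, 1.05 to 2.00), but macrophage nuclei carried them at 367 to 834 CPM, and without likely doublets both intervals included 1. The class I gene *H2-D1* was lower, at 847 and 562 CPM (0.664, 0.604 to 0.729). Of 18 measured interferon-stimulated genes 1 lay above 1 and 6 below, with a median log2 ratio of -0.27. *Irf7*, which amplifies the interferon response, was at 52.8 and 27.7 CPM (0.524, 0.343 to 0.792), and *Gbp4* at 256 and 178 CPM (0.693, 0.585 to 0.822), whose interval included 1 with no upper limit on UMIs. *Bst2* was the gene above 1 (1.22, 1.04 to 1.42). Of 13 measured adhesion and recruitment genes only *Jam2*, a junctional adhesion molecule, had an interval off 1 (0.606, 0.506 to 0.726). *Vcam1* and *Icam1*, which arrest leukocytes, did not differ detectably (0.938, 0.809 to 1.09, and 0.841, 0.644 to 1.10).

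The genes at either end of the ratios, among those enriched in sinusoidal nuclei, held further members. At the lower end stood *Trim35*, a ubiquitin ligase, at 213 and 80.2 CPM (0.377, 0.300 to 0.471), and *Twist1*, a bHLH transcription factor, at 48.5 and 15.2 CPM (0.313, 0.182 to 0.521). *Cd38*, an enzyme that consumes NAD, was at 761 and 391 CPM (0.514, 0.462 to 0.572). *Ifi208*, an interferon-inducible gene, *Hpse*, heparanase, and the unnamed transcripts *1110018N20Rik*, *6030445D17Rik* and *Gm45606* were also at that end, with *Cyp26b1*, *Rspo3* and *Dkk3*. Some of these genes were lower in other nuclei too. *Cd38* had a ratio of 0.568 (0.370 to 0.869) in *Vwf* nuclei and 0.612 (0.519 to 0.720) in macrophage nuclei. *Trim35* had ratios of 0.380 (0.137 to 0.990) in *Vwf* nuclei, 0.519 (0.410 to 0.654) in stellate nuclei and 0.497 (0.309 to 0.783) in macrophage nuclei, and *Ifi208* one of 0.390 (0.239 to 0.616) in stellate nuclei.

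At the upper end stood *Itm2c*, a membrane protein, at 59.6 and 139.7 CPM (2.34, 1.78 to 3.12), found in 58 and 178 nuclei. *Adora2a*, an adenosine receptor that relaxes vessels, had 14 and 50 UMIs (2.90, 1.58 to 5.68), and *Plaur*, the urokinase receptor, 14 and 48 UMIs (2.78, 1.51 to 5.47). *Kcne3*, a potassium channel subunit, and *Mpp3* had ratios of 2.71 (1.50 to 5.19) and 2.95 (1.49 to 6.38). The others were *Kcnj2*, *Edn1* and the cell cycle genes *Ncapg*, *Hells*, *Sgo2a*, *Clspn* and *Plk4*, with 45 to 62 UMIs each. Without the cycling nuclei the interval of *Ncapg* included 1.

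When genes were not required to be enriched in sinusoidal nuclei, hepatocyte genes took the ends. All 8 lowest genes (*Mup7*, *Serpina1e*, *Mup11*, *Mup17*, *Mup1*, *Mup12*, *Selenbp2* and *Mup9*) and 5 of the 8 highest had a higher level in hepatocyte nuclei than in sinusoidal nuclei. *Mup7* had 132 and 2 UMIs in sinusoidal nuclei and was at 206 and 2.22 CPM in hepatocyte nuclei. *Slco1a4* had 5 and 90 UMIs and was at 54.7 and 307 CPM there. *Gpnmb*, a gene of lipid-laden macrophages, had 1 UMI in 1 nucleus and 42 UMIs in 18. Reads of *Mup* genes can be shared between near-identical copies.

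LSECs vary along the lobule, and the sinusoidal nuclei were divided by 5 genes of the central side (*Wnt2*, *Wnt9b*, *Rspo3*, *Kit*, *Thbd*) and 5 of the portal side (*Efnb2*, *Dll4*, *Ltbp4*, *Ntn4*, *Adgrg6*). UMIs of the central genes only were found in 164 (21.9%) and 221 (18.9%) nuclei, of the portal genes only in 266 (35.5%) and 380 (32.5%). Both kinds were found in 191 and 225 nuclei and neither in 129 and 345, so the genes separate the nuclei only in part. Several genes that the division had not used differed between central-only and portal-only nuclei in the same direction in both libraries.

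*Msr1* was the clearest portal gene. It was at 128 and 532 CPM in central-only and portal-only nuclei with the Flox label and at 122 and 473 CPM in those with the HKO label, central over portal ratios of 0.241 (0.162 to 0.347) and 0.258 (0.174 to 0.372). *Sox17*, an arterial transcription factor, had ratios of 0.440 (0.257 to 0.723) and 0.549 (0.346 to 0.846), *Cd36* 0.633 (0.506 to 0.789) and 0.661 (0.555 to 0.784), and *Hgf* 0.724 (0.576 to 0.906) and 0.781 (0.608 to 0.998). On the central side *Selp*, P-selectin, had ratios of 5.68 (2.40 to 15.5) and 2.57 (1.15 to 6.02), and *Cdh13*, T-cadherin, 2.04 (1.27 to 3.30) and 2.01 (1.15 to 3.54). *Cyp26b1* was higher on the central side, at 1.52 (1.23 to 1.88) and 1.68 (1.15 to 2.45). *Stab2*, a selecting gene, did not differ detectably between the sides, at 1.04 (0.912 to 1.18) and 1.04 (0.919 to 1.18). *Alb*, a hepatocyte transcript, was higher in central-only nuclei too, at 1.33 (1.17 to 1.50) and 1.30 (1.11 to 1.51), and the part of hepatocyte RNA in these ratios was not tested.

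Of the 10 listed central genes 8 were measured, of which *Fabp4* lay above 1 between the libraries and *Wnt2*, *Rspo3*, *Kit* and *Cdh13* below, with a median log2 ratio of -0.38, which ranged from -0.52 to -0.013 over the alternatives. *Kit*, a receptor of central LSECs, was at 395 and 284 CPM (0.719, 0.628 to 0.823), and *Cdh13* at 137 and 76.1 CPM (0.555, 0.431 to 0.711). Of the 10 portal genes 1 lay above 1 and 2 below, with a median of 0.02, which ranged from -0.06 to 0.39 over the alternatives. *Ltbp4*, which binds latent TGF-beta, was at 335 and 268 CPM (0.802, 0.695 to 0.925). With no upper limit on UMIs the interval of *Kit* included 1 and *Ltbp4* turned to 1.05.

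Nuclei with any central gene made up 47.3% (43.7 to 51.0) of sinusoidal nuclei with the Flox label and 38.1% (35.3 to 40.9) of those with the HKO label, a ratio of 0.805 (0.698 to 0.928), and after thinning to 800 UMIs 37.3% and 29.2%, a ratio of 0.782 (0.657 to 0.931). Nuclei with any portal gene made up 60.9% and 51.7%, a ratio of 0.848 (0.750 to 0.960), and after thinning 45.6% and 41.4%, a ratio of 0.906 (0.779 to 1.06). The lower *Cyp26b1* was present on both sides. In central-only nuclei its ratio of HKO-labelled to Flox-labelled CPM was 0.328 (0.241 to 0.442), in portal-only nuclei 0.297 (0.216 to 0.402), in nuclei with both kinds of genes 0.269 (0.194 to 0.368) and in nuclei with neither 0.470 (0.322 to 0.688). *Btnl9* was at 476 and 752 CPM in portal-only nuclei, a ratio of 1.58 (1.32 to 1.90), and at 418 and 481 CPM in central-only nuclei, a ratio of 1.15 (0.888 to 1.49).

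**Figure D5:**
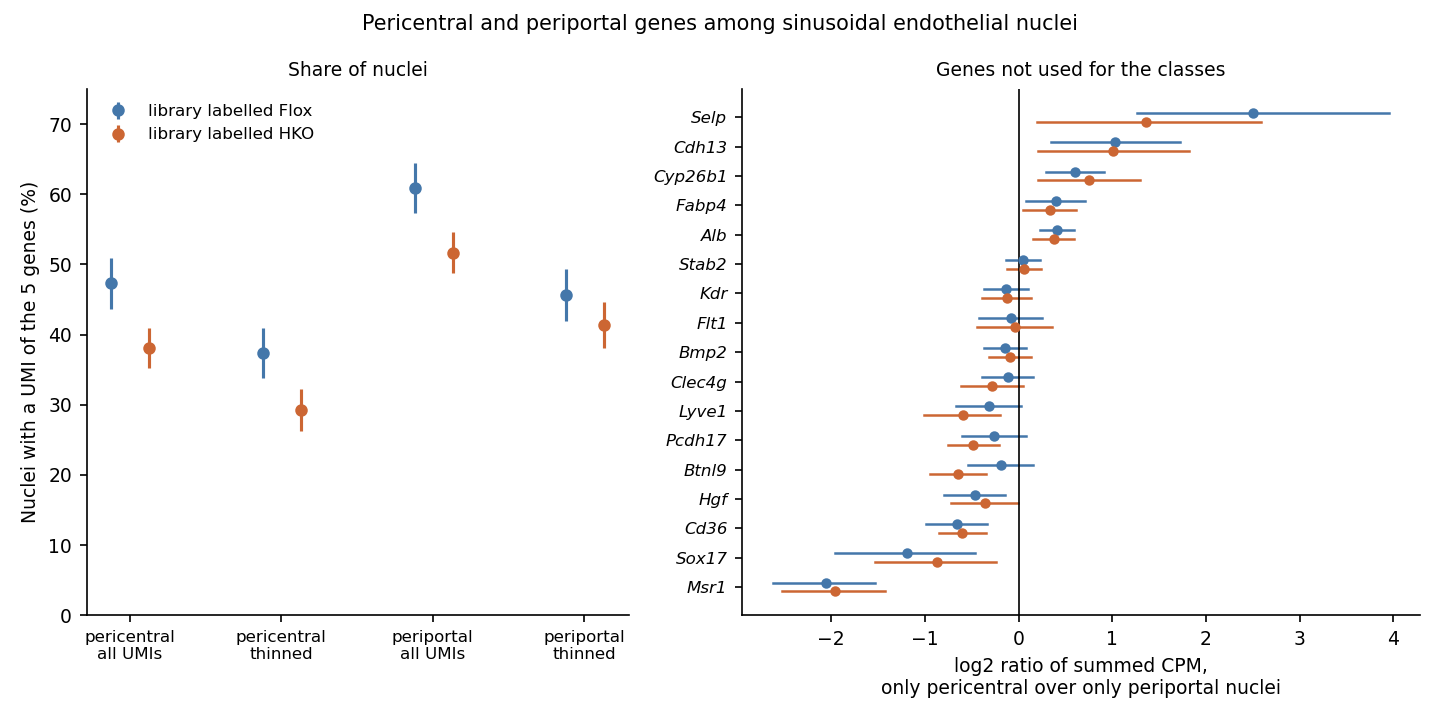
Left, share of sinusoidal nuclei with a UMI of the 5 pericentral or 5 periportal genes (y axis, %), with all UMIs and after thinning to 800 UMIs. Right, log2 ratio of summed CPM in central-only over portal-only nuclei (x axis) for genes not used to divide them. Blue is the library labelled Flox, orange that labelled HKO, and bars are 95% counting intervals. *Selp*, *Cdh13* and *Cyp26b1* lie right of 0 and *Msr1*, *Sox17* and *Cd36* left of it in both libraries.

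A few sinusoidal nuclei were in cell cycle. At least 3 UMIs of 14 cell cycle genes, such as *Mki67* and *Top2a*, were found in 15 (2%) and 40 (3.42%) nuclei, a ratio of 1.71 (0.923 to 3.33), and after thinning in 11 of 723 and 28 of 887 (2.07, 1.001 to 4.62). *Top2a*, a topoisomerase of dividing cells, was at 68.1 and 101 CPM (1.48, 1.12 to 1.97) and *Mki67* at 63.0 and 61.6 CPM (0.977, 0.709 to 1.35). Of 10 measured cell cycle genes 2 lay above 1 and 0 below, and the median log2 ratio was 0.25. These nuclei had medians of 2130 and 1715.5 UMIs, above those of all sinusoidal nuclei.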

How the data were processed

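Nuclei of frozen livers were sorted and sequenced with a 10x 3′ v3 kit, as 1 library per genotype. The authors counted reads with Cell Ranger 8.0.1 on the mouse genome build GRCm38 and left out intronic reads. The deposited matrices hold whole-number UMI counts, not normalized, of 32285 genes, and no columns of other samples. Groups come from the genotype in the labels, where the library of Flox mice is also titled WT. Members and gene lists were chosen with earlier results of these data known.

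UMIs of members were summed per library and divided by their total. Ratios carry exact conditional binomial intervals, levels exact Poisson intervals and shares Clopper-Pearson intervals, all at 95% and for counting error only, since PCR and pooling were not replicated. Genes needed 20 UMIs over both libraries, and log2 ratios used 1 CPM as pseudocount. Single genes are described as higher or lower between the libraries where the interval left out 1. The counts of 238 and 224 genes also required a ratio of at least 2 or at most 0.5. Named genes are members of the lists with 20 UMIs. Added to them were the 12 at either end of the interval bounds among genes with 30 UMIs and a level 2 times that in other nuclei, the 8 at either end without that condition, and the 15 highest over other nuclei with at least 100 UMIs. Genes outside this rule are given as UMI counts only. A few named genes are not reported here. Hepatocyte nuclei had at least 10 UMIs of 4 hepatocyte genes together, and no UMI of the selecting genes, of *Vwf* or of the 6 excluded genes.

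Scripts ran in Python 3.11.15 (numpy 2.4.6, scipy 1.17.1, pandas 2.3.3, matplotlib 3.10.9), with Scrublet from scanpy 1.11.5 at 0.8% doublets per 1000 barcodes and TMM factors from edgeR 4.0.16 in R 4.3.3. They were tested on simulated data. Coordinates of 423 of 423 listed genes are those of the GRCm38 annotation. Alternatives changed the selecting limits, doublets, denominators, depth, scaling, pseudocount and low-count filter. Those without cycling nuclei and without nuclei holding RNA of other types (over 20 hepatocyte or over 3 macrophage marker UMIs) were added after the data had been seen.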

Additional observations from a re-analysis of the deposited data

How the results depend on the processing

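With 1 library per genotype no replicate could be left out, and no value here speaks to the spread between mice. No paired analysis was possible because each genotype had 1 library. The share ratio of 1.36 became 1.16 with at least 5 selecting UMIs, 1.23 with at least 500 genes, 1.06 among nuclei that were not hepatocyte nuclei, 1.11 with all nuclei thinned to 800 UMIs, and turned to 0.859 among nuclei with at most 6000 UMIs. The cause of these shifts was not tested. The 238 genes at least 2 times higher in the library labelled HKO became 123 without likely doublets, 154 after thinning and 115 with at least 50 UMIs. The 224 genes at most 0.5 times as high became 484 with no upper limit on UMIs and 103 with at least 50 UMIs. The share of such calls that were higher was 51.5%, against 32.3% without likely doublets, 35.4% with no upper limit and 60.5% with 2 selecting UMIs. Other scalings moved the median log2 ratio of all genes from -0.03 to between 0.00 and 0.01. With no upper limit on UMIs the log2 ratios of 27 listed or named genes below 0 turned positive, those of *Aqp1* (0.16), *B2m* (0.060), *Bmp2* (0.074), *Clec14a* (0.15), *Ebf1* (0.13), *Egfl7* (0.25), *Emcn* (0.11), *Ets1* (0.092), *F8* (0.17), *Fcgr2b* (0.097), *Fli1* (0.059), *Flt4* (0.087), *Gas6* (0.064), *H2-K1* (0.055), *Hgf* (0.0089), *Lama4* (0.10), *Ltbp4* (0.067), *Lyve1* (0.070), *Maf* (0.18), *Mrc1* (0.075), *Nid1* (0.079), *Nrp2* (0.077), *Oasl2* (0.044), *Oit3* (0.015), *Stab1* (0.20), *Stab2* (0.22) and *Ushbp1* (0.22), and 5 above 0 turned negative, those of *Ank3* (-0.023), *Cps1* (-0.18), *Mlxipl* (-0.25), *Prox1* (-0.63) and *Vegfa* (-0.41). *Col1a2* (1.22) and *Lipg* (-0.074) turned without likely doublets, and *Col4a2* (0.063) after thinning. Of the other log2 ratios of listed and named genes under the alternatives, 4331 lay within the counting interval of the reported value and 254 outside it. Medians of gene lists differed by over 0.1 in 114 of 448 cases. At this depth, genes under 20 UMIs could not be compared.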
